A study of Canis lupus familiaris with 31 samples.

Results

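Whole-blood RNA-seq counts of 31 Miniature Schnauzers held 3000 rows named after small non-coding RNAs out of 32704 rows in the table. Of these, 2892 carry an Rfam number, which is the label of an RNA family in the Rfam database, and 108 carry the symbol of a miRNA gene. A row was included when it had at least 10 counts in at least 10 dogs, which left 418 rows, 396 with one of 195 Rfam numbers and 22 with a miRNA symbol. Another 1427 of the named rows had 0 counts in every dog, and 1155 were counted but fell short of the limit. The 19 rows just inside the limit, with 10 counts in exactly 10 dogs, had median counts over the dogs of 3 to 8, and so did the 15 rows just outside it, with 10 counts in 9 dogs. At the other end, 160 of the 418 rows had at least 10 counts in every dog. The rows were chosen by their counts in these same dogs, so that being counted is not a result.

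The study asked which genes differ in expression in dogs with the disorder that the labels abbreviate as HTG, a raised level of triglycerides in fasted blood that is common in the breed. It compared 13 HTG cases (5 females and 8 males) with 18 controls (8 females and 10 males), with 1 library per dog. All dogs were client-owned Miniature Schnauzers, almost all of them neutered, no drug or diet was assigned, and the labels do not give their ages. Total counts per dog ranged from 14524659 to 41533599, with a median of 20588919 in the HTG dogs and 19679367 in the controls. Libraries were made from total RNA with a kit that removes ribosomal RNA, although the labels call the molecule polyA RNA.

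Most of these RNAs do not encode protein and work inside RNA-protein particles. Small nuclear RNAs (snRNAs) form the spliceosome, box C/D and box H/ACA small nucleolar RNAs (snoRNAs) guide chemical changes of ribosomal and other RNAs, 7SK restrains transcription elongation, and Y RNAs bind the Ro protein and are abundant in blood cells and in blood-borne fragments. A miRNA gene makes a hairpin precursor from which a short regulatory RNA is cut, and the library type used here was not made for the short mature form. A few Rfam numbers mark conserved stretches of long non-coding RNAs, among them MALAT1 and NEAT1, which are nuclear RNAs, and Xist, which coats the inactive X chromosome.

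Blood was checked first. The summed levels of listed marker genes of erythroid cells, platelets, neutrophils, monocytes, T cells, B cells and NK cells were above 0 in every dog, with HBA1, HBB, PF4 and CD14 not found in the table by symbol, while the summed level of 4 genes of liver, pancreas and epidermis was at most 2.18 CPM. CPM is a count scaled to the TMM-normalized size of its library. In bulk blood, fewer cells of a type and less RNA per cell cannot be told apart.

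The 31 libraries did not form a single cloud in these rows, and this is given before any comparison because it touches all of them. In the summed level of the Y RNA rows (RF00019), 10 dogs lay between 1013 and 3370 CPM and the other 21 between 71.6 and 253 CPM. Nothing lay between, and the gap was 2.00 on the log2 scale. The 10 high dogs were HTG 5, 6, 7, 9 and 13 and control 2, 3, 13, 14 and 15, so 5 were HTG and 5 were control, and 3 were female and 7 male. The same 10 dogs had the highest mean log2 CPM over all small RNA rows. Their total counts were 14524659 to 24269376, with a median of 17216529, against 16844561 to 41533599 in the other dogs, with a median of 21402194. Summed platelet markers ranged from 2417 to 5343 CPM in the 10 dogs and from 806 to 4449 CPM in the others, and neutrophil markers from 4534 to 8847 CPM and from 3058 to 14808 CPM. Erythroid markers ranged from 923 to 25268 CPM and from 532 to 15080 CPM. The ranges overlapped for each of these lists, as they did for monocyte, T, B and NK cell markers. Medians in the 10 dogs and the others were 3734 and 2546 CPM for platelet and 6885 and 6018 CPM for neutrophil markers. Erythroid medians were 2872 and 1995 CPM, and monocyte medians 1402 and 1510 CPM. For T cells they were 169 and 191 CPM, for B cells 89.5 and 85.3 CPM and for NK cells 24.8 and 33.9 CPM. The part of cell make-up in the split was not tested. The study's methods describe a set of libraries, equal in size and in its make-up of cases and controls to these dogs, that had been extracted and prepared earlier for a pilot, and its models carried batch as a covariate because the batch showed in its principal components. Since the labels do not name the dogs of that set, whether it is the same set was not tested. Here the 10 dogs were set apart by their counts alone.

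**Figure D1:**
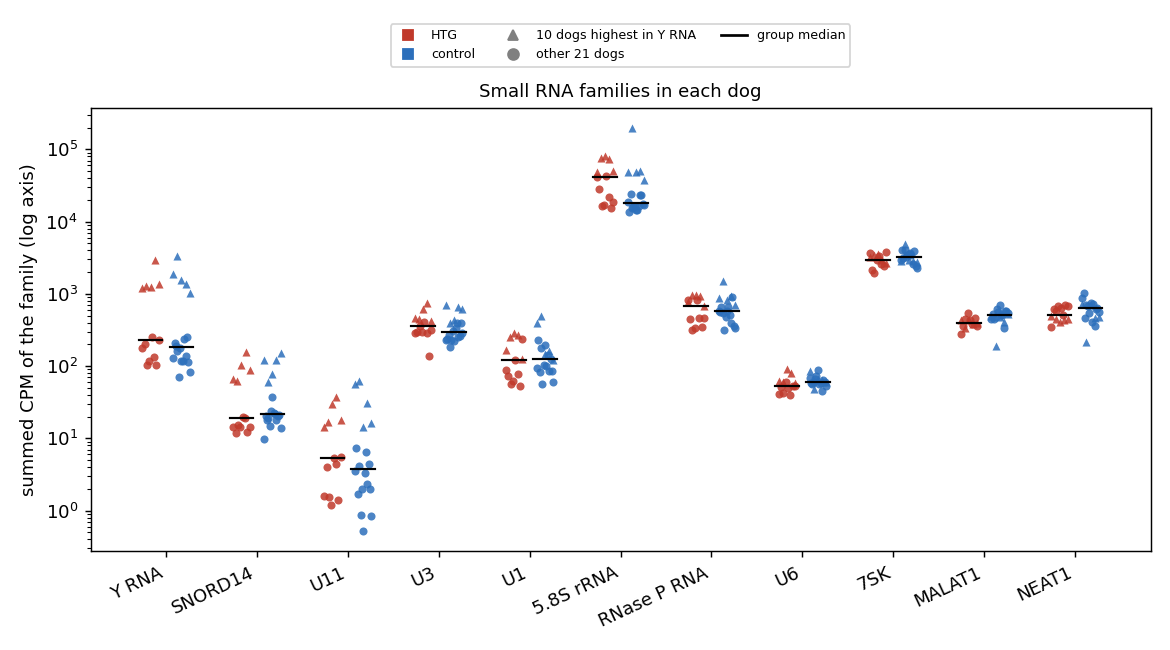
Summed CPM (log axis) of 11 small RNA families in each dog, with HTG dogs in red, controls in blue, triangles for the 10 dogs highest in Y RNA, circles for the other 21 dogs and bars for group medians. Triangles lie apart above the circles for Y RNA, SNORD14 and U11 and are mixed with them for U6, 7SK, MALAT1 and NEAT1, while red and blue overlap throughout.

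Read shares show how uneven the rows were. The 418 rows together took 2.22% of all counts in the lowest HTG dog, 3.76% in the median one and 8.27% in the highest, against 2.39%, 2.98% and 11.1% in the controls. A single row of 5.8S ribosomal RNA (RF00002, ENSCAFG00000027890) was the largest part of this, since the 5.8S rows held 76.5% of the counts on the 418 rows and 3.03% of all counts in the table, and 99.99% of those fell on the one row. Without RF00002 the share was 0.62%, 0.80% and 1.37% in the HTG dogs and 0.64%, 0.98% and 1.44% in the controls (lowest, median and highest). Ribosomal RNA was removed during library preparation, and how far the removal differed between dogs was not tested. The 5.8S sum was highest in control 3, at 194596 CPM, against 81439 CPM in the next highest library, HTG 7.

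Counts are not divided by length here, and the table gives no lengths, so the rows are not ranked against each other by level. After 5.8S, 7SK rows took 8.22% of the small RNA counts, the long non-coding RNA stretches 2.79%, box C/D snoRNAs 2.47%, RNase P and MRP RNAs 2.31%, box H/ACA snoRNAs 1.44% and Y RNAs 1.31%. Major spliceosomal snRNAs other than U6 took 0.55%, U6 0.15% and all miRNA rows together 0.11%. Another 125 rows, whose Rfam numbers were not assigned to a class, took 3.80%.

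Some families have many near-identical copies in the genome, which reads may not tell apart, so the split between copies is uncertain. U6 had 1237 rows in the table and 55 members, and its row with the most counts held only 14.9% of the family's counts. By contrast, 1 of the 45 7SK members (ENSCAFG00000022010) held 95.6% of the 7SK counts, and 1 of 8 Y RNA members (ENSCAFG00000022137) held 92.6%. The 5S ribosomal RNA family had 218 rows and 14 members, U4 had 134 rows and 9 members, U2 had 80 and 9, and U1 had 60 and 12, with top rows of 25.5%, 42.1%, 22.3% and 33.7% of the family's counts. For this reason families are described below by their summed CPM as well as by row.

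Y RNAs varied most among the families with more than 1% of the small RNA counts. The HTG dogs ranged from 102 to 2911 CPM with a median of 230, and the controls from 71.6 to 3370 CPM with a median of 183. High and low dogs stood in both groups, and the groups overlapped over nearly the whole range. For the dominant row the log2 fold change, HTG over control, was 0.21 with a standard error (SE) of 0.62 (edgeR quasi-likelihood test, adjusted p = 0.943). Over the 31 dogs the member rows whose order was most like that of this row were another Y RNA row (ENSCAFG00000022575, Spearman's rho 0.957), SNORA66 (0.939), a further Y RNA row (ENSCAFG00000022570, 0.939), U11 (0.927) and SNORA61 (0.894). These are the highest of all member rows by construction, all from the same libraries, and are given as a description.

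How far the split reached was read from the order of the dogs. For each of 217 families (195 Rfam numbers and 22 miRNA rows) the 10 highest dogs were compared with the 10 highest in Y RNA. In 71 families besides Y RNA the same 10 dogs stood highest, in 120 of the 217 at least 8 of them did, and in 53 at most 4 did, with a median of 8. Row by row, the 10 dogs all lay above the other 21 in 91 of the 349 small RNA rows that passed the filter on low counts used below, or 26.1%, beside 0.941% of all 13918 rows (131) and 0.295% of the rows that are not small RNA rows (40). The 10 dogs were chosen by Y RNA rows, which are among the 349, so these shares are a description. The limit of 10 counts in 10 dogs can also let a row in through the 10 high dogs alone. In 5 rows of the 418 (2 of Y RNA, 2 of 7SK and MIR92A1) these were the only dogs with 10 counts, so that the limit itself split their counts in this way, and 59 rows reached 10 counts in fewer than 10 of the other 21 dogs. Counting only the 196 families with a row that at least 10 of the other 21 dogs reached, 66 (Y RNA included) had the same 10 highest dogs and 111 shared at least 8. Among rows with at least 10 counts in every dog, the 10 dogs lay above the rest in 55 of 160 small RNA rows, or 34.4%, beside 81 of all 11140 such rows tested, or 0.727%. The families share their libraries and are not independent.

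Box C/D snoRNAs guide ribose methylation. In 20 of the 35 families assigned to this class the 10 highest dogs were the Y RNA ones, beside 72 of all 217 families, Y RNA included. By single row, the 10 dogs stood above the rest in 26.1% of small RNA rows and 0.941% of all rows tested. Counts by class take in all families, also those let in through the 10 dogs. SNORD36 lay between 6.83 and 21.6 CPM in the 10 dogs and between 0.436 and 2.33 CPM in the others, a gap of 1.55 on the log2 scale, and SNORD29 between 23.3 and 74.4 CPM and between 2.22 and 8.56 CPM. SNORD14, SNORD33, SNORD39, SNORD60 and SNORD61 showed a gap at the same place. The class was not uniform. SNORD58 ranged from 4.96 to 8.52 CPM in the 10 dogs and from 4.05 to 9.49 CPM in the others and shared 2 of the 10, and the 10 dogs lay at 0 to 1.29 CPM for SNORD52 and the others at 0.0430 to 0.906 CPM. U3, which acts in cutting the ribosomal RNA precursor rather than in methylation, shared 9 of the 10 dogs, with 398 to 743 CPM against 139 to 406 CPM.

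Box H/ACA snoRNAs guide pseudouridylation, and here the same held in 11 of the 29 families assigned to the class, beside 72 of all 217 families. By single row this was 26.1% of small RNA rows and 0.941% of all rows tested. Rfam numbers left without a class may hold further snoRNAs, so these counts cover the named families alone, and the classes were not compared by a test. SNORA8 lay between 63.6 and 98.3 CPM in the 10 dogs and between 16.7 and 37.7 CPM in the others, and SNORA5 between 10.4 and 17.8 CPM and between 2.32 and 6.66 CPM. Both left a clear space between the dogs. SNORA1, SNORA18, SNORA19 and SNORA72 shared no more than 3 of the 10 dogs, and SNORA73, which takes part in cutting the ribosomal RNA precursor, shared 7, with 226 to 412 CPM against 126 to 407 CPM.

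Spliceosomal snRNAs were mixed. Of the minor spliceosome, which removes a rare class of introns, U11 lay between 14.2 and 61.3 CPM in the 10 dogs and between 0.520 and 7.40 CPM in the others, and U4atac between 12.6 and 35.5 CPM and between 3.54 and 9.59 CPM. U12 overlapped, at 4.98 to 11.3 CPM and 3.86 to 8.00 CPM, although it sits with U11 in one particle, and U6atac, with 0 to 0.794 CPM and 0.0598 to 0.886 CPM, shared 1 of the 10. Of the major spliceosome, U1 (122 to 492 CPM against 53.0 to 234 CPM), U2 (9.16 to 18.9 CPM against 3.77 to 11.4 CPM) and U4 (51.8 to 133 CPM against 18.8 to 73.3 CPM) overlapped between the 10 dogs and the rest and shared 6, 8 and 8 of the 10. U5, which holds the exons in place, shared 9, at 1.64 to 9.46 CPM against 0.0394 to 1.71 CPM, and its ranges met only at their ends. U6, transcribed by RNA polymerase III as Y RNAs are, shared 5, with 48.4 to 92.2 CPM against 39.2 to 89.1 CPM.

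Other RNA polymerase III products did not share one order either. Vault RNA, part of a large cytoplasmic particle, was highest in HTG 7 at 24.1 CPM and in the 21 other dogs reached at most 2.40 CPM, and it shared 8 of the 10 dogs. RNase P RNA, which trims transfer RNA, shared 7, with 673 to 1482 CPM against 312 to 918 CPM. 7SK shared 2, with 2646 to 4882 CPM in the 10 dogs and 1941 to 4055 CPM in the others, and its standard deviation over all dogs was 0.30 on the log2 scale, against 1.71 for Y RNA. U6 had a standard deviation of 0.30 and the row RF01268, whose family was not assigned to a class, 0.25.

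Long non-coding RNA stretches had another order. MALAT1 and the NEAT1 rows RF01955, RF01956 and RF01957 shared 1, 0, 2 and 2 of the 10 dogs. MALAT1 was lowest in control 3 at 190 CPM, as was the sum of the NEAT1 rows at 217 CPM. In CPM, control 3 is also the library with the highest Y RNA and 5.8S levels, and its low TMM factor (0.527) raises these values. NEAT1 was highest in control 4 at 1031 CPM.

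Of the 108 Rfam numbers not assigned to a class, 36 had the same 10 highest dogs as Y RNA and 27 shared at most 4 of them. Over all 217 families these counts were 72, Y RNA included, and 53. By single row, and so not in the same unit, the 10 dogs stood above the rest in 0.941% of all rows tested. RF00608 lay between 7.59 and 30.0 CPM in the 10 dogs and between 0.708 and 2.86 CPM in the others, RF00588 between 2.54 and 9.31 CPM and between 0.118 and 0.961 CPM, and RF00324 between 3.71 and 11.4 CPM and between 0.237 and 1.61 CPM. In each of these the gap between the 10 dogs and the rest was over 1 on the log2 scale. RF01296, the second of these numbers by counts after RF01268, overlapped instead, at 147 to 259 CPM and 87.7 to 537 CPM, and RF00494 shared 2 of the 10, at 17.4 to 27.0 CPM and 14.8 to 37.6 CPM.

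**Figure D2:**
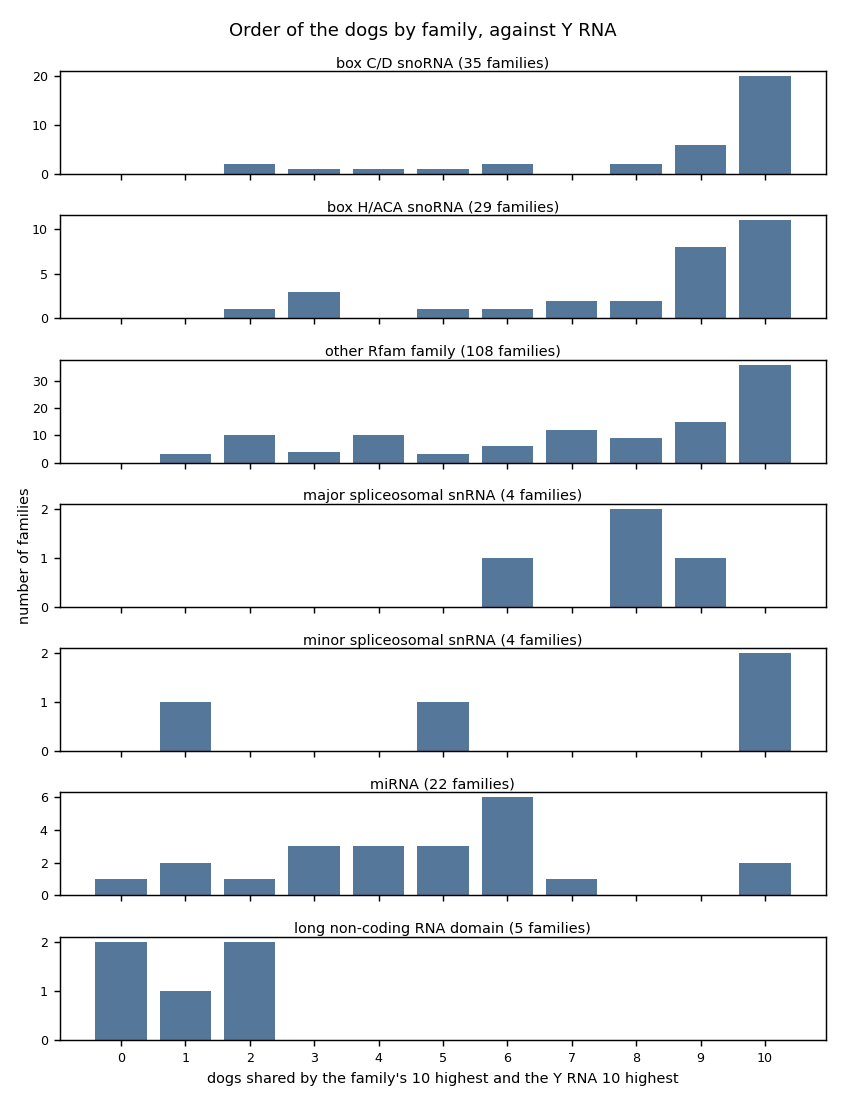
Number of families (vertical axes, which differ between panels) by how many of their 10 highest dogs are also the 10 highest in Y RNA (horizontal axis), for 7 classes. Box C/D and H/ACA snoRNA families pile up at 10, miRNA rows spread from 0 to 7 with 2 rows at 10, and long non-coding RNA stretches stay at 2 or below.

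miRNA gene rows were low in counts. Of 16 miRNA names listed for their known roles in blood cells or lipid metabolism, 7 had a row in the table and 3 a row among the 418, namely MIR142, MIR21 and MIR27B. MIR122, which is typical of liver and regulates lipid metabolism, had 0 counts in every dog. MIR142, a miRNA of blood cells, had 32 to 206 counts per dog, and its level was 2.40, 3.59 and 8.63 CPM in the lowest, median and highest HTG dog and 2.75, 4.15 and 6.90 CPM in the controls. The groups overlapped, and the log2 fold change was −0.12 with an SE of 0.15 (edgeR, adjusted p = 0.855). MIR21, found in many cell types and raised in inflammation, had 2.09, 2.76 and 4.06 CPM in the HTG dogs and 1.89, 2.91 and 4.49 CPM in the controls, again overlapping, with a log2 fold change of −0.05 and an SE of 0.14. MIR27B, a regulator of lipid genes, had 1 to 57 counts and a log2 fold change of 0.06 with an SE of 0.29. MIR23A had the most counts of the 22 rows, with 101 to 554 per dog and a log2 fold change of −0.04 (SE 0.17).

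Among the 22, MIR191 and MIR92A1 had the same 10 highest dogs as Y RNA, which for MIR92A1 follows from the limit on counts, since no other dog reached 10, while MIR191 had 10 counts in 22 dogs. MIR191 lay between 2.96 and 20.4 CPM in these dogs and between 0.132 and 0.904 CPM in the others, a gap of 1.71 on the log2 scale. For MIR92A1, a member of a cluster known in blood cell growth, the values are given only as a description and lay between 0.589 and 8.25 CPM and between 0 and 0.378 CPM. Both rows had few counts outside the 10 dogs, with medians over all dogs of 14 and 5 counts. DALRD3, the protein-coding gene in which MIR191 lies in other mammals, did not separate the dogs, with 5.71 to 12.0 CPM in the 10 and 4.25 to 11.5 CPM in the rest.

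**Figure D3:**
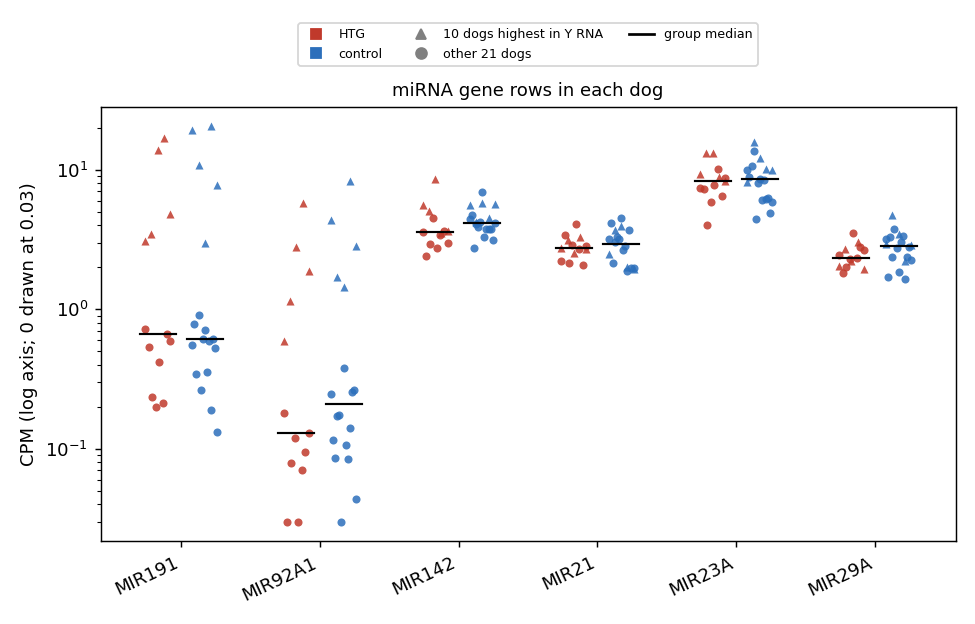
CPM (log axis, with 0 drawn at 0.03) of 6 miRNA gene rows in each dog, with HTG dogs in red, controls in blue, triangles for the 10 dogs highest in Y RNA, circles for the other 21 and bars for group medians. For MIR191 and MIR92A1 all triangles lie above all circles, where MIR92A1 was included through these 10 dogs alone, and for MIR142, MIR21, MIR23A and MIR29A they overlap.

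Of the 22 miRNA rows, 14 matched a dog RefSeq gene by symbol (assembly UU_Cfam_GSD_1.0, used only for names and neighbours), and 7 of these lie within another gene there. MIR191 matched by symbol, but no gene holding it was found there, so DALRD3 was not shown to be its host in the dog. MIR140 lies in WWP2, a ubiquitin ligase gene with a median of 2175 counts per dog, and had a log2 fold change of 0.38 (SE 0.30) beside −0.01 (SE 0.07) for WWP2. MIR1296 lies in JMJD1C, a gene related to histone demethylases, with 15217 counts, and had −0.05 (SE 0.25) beside −0.13 (SE 0.09). A row inside another gene can also take reads of that gene's unspliced RNA, which was not tested.

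For HTG against control, edgeR called 0 of the 349 small RNA rows that passed its filter on low counts, at an adjusted p of at most 0.05. Over all 13918 rows tested, 5 were called, a background of 0.0359%, so 0 of 349 is near the background. At an unadjusted p under 0.05 there were 9 small RNA rows, or 2.58% against 9.81% of all rows. Of these 8 were lower in HTG, 2.29% against 4.76% of all rows, and 1 was higher, 0.287% against 5.04%. DESeq2 also called 0 small RNA rows, with 84 called of all rows (0.604%) and 12 small RNA rows at an unadjusted p under 0.05, 3.44% against 10.5% of all rows. The other 69 of the 418 rows did not pass the filter, and their median counts were at most 11. The median log2 fold change of the 349 rows was 0.01, beside −0.02 over all rows.

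Precision was lower than for other rows. The median SE of the log2 fold change was 0.303 over the small RNA rows and 0.129 over the others, and the median standard deviation of log2 CPM between dogs was 0.829 and 0.360. A count of 0 calls therefore does not show that the groups were alike. Between HTG dogs and controls, summed erythroid markers had medians of 3035 and 1305 CPM, with ranges of 649 to 15080 and 532 to 25268 CPM, and platelet markers 3027 and 2498 CPM, with ranges of 1315 to 5343 and 806 to 5270 CPM. Neutrophil markers had medians of 6372 and 5693 CPM, monocyte markers 1569 and 1429 CPM, T cell markers 170 and 189 CPM, B cell markers 91.8 and 83.6 CPM and NK cell markers 34.2 and 24.6 CPM. The ranges of the groups overlapped for every list, and the part of cell make-up in the HTG comparison was not tested.

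**Figure D4:**
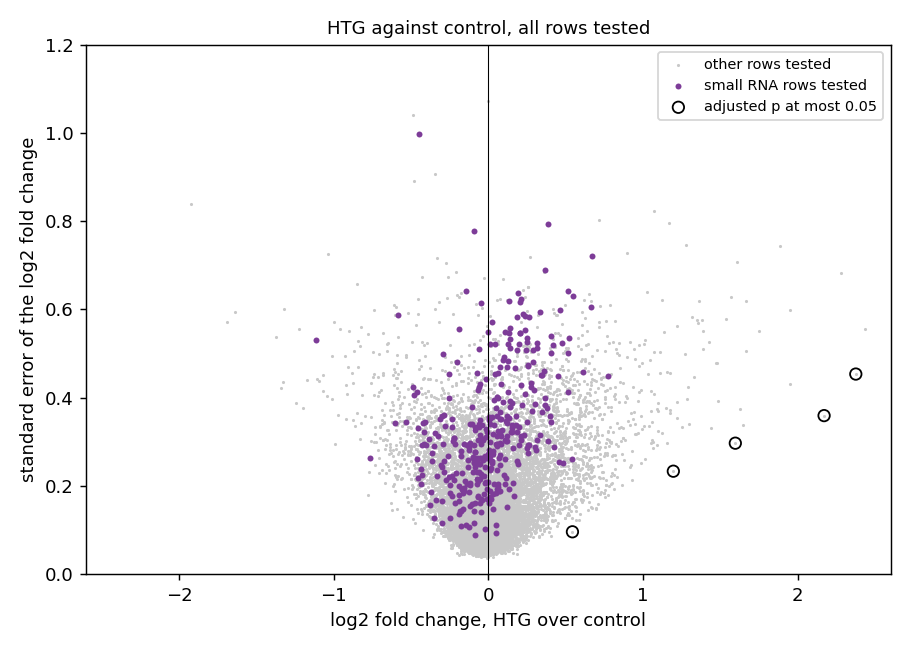
Log2 fold change, HTG over control, against its standard error for each row tested, with small RNA rows in purple, other rows in grey and circles around the 5 rows with an adjusted p of at most 0.05. No circle is on a purple point, and many purple points lie higher on the error axis than most grey ones. Beyond the axes lie 3 grey points.

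Smallest p-values belonged to rows of several kinds. RF00570, whose family was not assigned to a class, had 0.181, 0.339 and 0.874 CPM in the lowest, median and highest HTG dog and 0.283, 0.568 and 1.57 CPM in the controls. The groups overlapped, but 12 of 13 HTG dogs lay below the control median. Its log2 fold change was −0.77 with an SE of 0.26 (edgeR, p = 0.00623, adjusted p = 0.290), on 4 to 34 counts per dog.

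MALAT1 (RF01871, ENSCAFG00000029129), a nuclear RNA linked to splicing and present in most cells, had 282, 393 and 550 CPM in the lowest, median and highest HTG dog and 190, 516 and 701 CPM in the controls. Here too 12 of 13 HTG dogs lay below the control median, and the lowest dog of all was control 3. The log2 fold change was −0.30 with an SE of 0.12 (edgeR, p = 0.0148, adjusted p = 0.355). Without HTG 1 and control 3, the dogs with the lowest levels in their groups, it was −0.32 (edgeR, adjusted p = 0.0944). That fit left out the same pair for every row. Their TMM factors, 0.752 and 0.527, were the lowest of all libraries. Within the 10 dogs highest in small RNA it was −0.08 and without them −0.37, and it did not pass the threshold in either. All 6 rows of long non-coding RNA stretches had log2 fold changes below 0, from −0.45 to −0.06 with a median of −0.21, and 4 of them are stretches of the single transcript NEAT1. The lowest value, with an SE of 0.997, was that of the Xist stretch, which follows sex.

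U6, the catalytic snRNA of the spliceosome, had 3 rows at an unadjusted p under 0.05. For ENSCAFG00000028303 the levels were 5.32, 7.12 and 11.4 CPM in the HTG dogs and 6.15, 9.36 and 18.6 CPM in the controls. The ranges overlapped, 11 of 13 HTG dogs lay below the control median, and the log2 fold change was −0.35 with an SE of 0.13 (edgeR, adjusted p = 0.328). It was −0.14 within the 10 dogs highest in small RNA and −0.45 without them. The other two had log2 fold changes of −0.38 (ENSCAFG00000027894) and −1.12 (ENSCAFG00000026333). Of 36 U6 rows tested, 27 were below 0, with a median of −0.14, beside 54.5% of all rows tested below 0. Within the 10 dogs highest in small RNA this turned, with 22 of 28 rows above 0 and a median of 0.18. Without them 40 of 45 were below 0. Over all rows tested the medians of these fits were −0.03 and −0.01. U6 copies may share reads, so their rows are not separate evidence about HTG. The summed U6 level was 39.2, 53.1 and 92.2 CPM in the HTG dogs and 45.8, 60.0 and 89.1 CPM in the controls.

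Among snoRNAs, SNORA74 (ENSCAFG00000025850) was the one row of the 9 with a higher level in HTG, at 0.239, 1.44 and 2.78 CPM in the lowest, median and highest HTG dog and 0.331, 0.953 and 2.09 CPM in the controls. The ranges overlapped, with 11 of 13 HTG dogs above the control median, and the log2 fold change was 0.54 (SE 0.26, edgeR, p = 0.0460, not passing after adjustment). It was 0.92 within the 10 dogs highest in small RNA, 0.23 without them and 0.70 without HTG 1 and control 3. A SNORD14 row (ENSCAFG00000022406, −0.43) and a SNORA73 row (ENSCAFG00000021910, −0.45) lay below 0, while the SNORD14 row with the most counts was at 0.09 (SE 0.49). Within the 10 dogs ENSCAFG00000022406 was at −0.71 and ENSCAFG00000021910 at −0.27, and without HTG 1 and control 3 the former was at −0.29. RF00421 (−0.34) and RF01158 (−0.37) complete the 10 rows with the smallest p, and RF01158 was at −0.02 within the 10 dogs.

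Largest rows of the other families with several members were also uncalled. U1 (ENSCAFG00000032050) had a log2 fold change, HTG over control, of 0.08 with an SE of 0.31, U2 of 0.01 (SE 0.27) and U4 of −0.04 (SE 0.34), and these snRNAs recognise the splice sites or pair with U6. U3 had 0.16 (SE 0.21), SNORD45 0.35 (SE 0.45) and the largest SNORA73 row −0.25 (SE 0.18). SNORA71 had 0.01 (SE 0.34), SNORA62 0.06 (SE 0.36), SNORA21 −0.12 (SE 0.34) and SNORA2 −0.02 (SE 0.33). These snoRNA values were smaller than 2 times their errors in both directions. The largest SNORA74 row (ENSCAFG00000028400) was at −0.19 (SE 0.55), so it differed in sign from the SNORA74 row above. The largest 5S row, a part of the large ribosomal subunit, was at 0.66 with an SE of 0.60. As sums, box C/D snoRNAs had 399, 766 and 2392 CPM in the lowest, median and highest HTG dog and 490, 819 and 2246 CPM in the controls. Box H/ACA snoRNAs had 265, 466 and 1217 CPM and 282, 508 and 1248 CPM. Both classes overlapped between the groups over nearly the whole range.

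By class, the direction depended on the split, which was itself drawn from these rows. Of 46 box C/D rows 32 lay above 0, with a median of 0.11, but with the 10 dogs as a covariate 39 lay below 0 with a median of −0.21. Box H/ACA rows went from a median of −0.02 to −0.17. No row of either class was called under either fit, and 0.0359% of all rows were called with the covariate as well. Other settings moved the class medians too. Without HTG 1 and control 3 they were 0.19 for box C/D and 0.09 for box H/ACA rows, and with limma-voom 0.02 and −0.05. Small RNA rows at an unadjusted p under 0.05 numbered 16 with the covariate, all lower in HTG, which is 4.58% beside 4.56% of all rows lower, and 33 without the 10 dogs, which is 9.14% beside 10.6% of all rows. Of the 33, 32 were lower, 8.86% beside 4.1%. Within the 10 dogs there were 2, both higher, or 0.587% beside 2.17%.

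The remaining classes lay close to 0 for their errors. 7SK had a median log2 fold change of 0.01 over 32 rows, and its dominant row had −0.15 (SE 0.11). The 7SK median was −0.06 with the 10 dogs as a covariate, −0.09 without them and 0.09 without HTG 1 and control 3. The summed 7SK level was 1941, 2943 and 3804 CPM in the HTG dogs and 2301, 3189 and 4882 CPM in the controls, which overlapped. RNase P RNA had −0.02 (SE 0.21) and RNase MRP RNA, which acts on the ribosomal RNA precursor, −0.22 (SE 0.21). The dominant 5.8S row had 0.28 (SE 0.37), with 15505, 41737 and 81439 CPM in the HTG dogs and 13504, 17849 and 194596 CPM in the controls by family sum. Telomerase RNA, the template of chromosome ends, had 0.03 (SE 0.15). The 19 miRNA rows tested had a median of −0.05 and a range of −0.42 to 0.43, with 12 below 0. The ends were MIR101-1 (SE 0.29) and MIR29B1 (SE 0.29), and the related MIR29A and MIR29B2 were at −0.19 (SE 0.14) and −0.12 (SE 0.30). MIR15A, known as a brake on B cell survival, was at 0.33 (SE 0.32) and MIR22 at 0.36 (SE 0.38).

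Proteins that make or carry these RNAs were counted on the same libraries. Of 57 genes in 6 lists 53 were tested, none was called, beside 0.0359% of all rows, and 5 had an unadjusted p under 0.05, which is 9.43% beside 9.81% of all rows. Over all rows tested, 54.5% lay below 0, with a median log2 fold change of −0.02, and the lists below are to be read beside that. In the list for snRNA transcription and assembly 16 of 17 lay below 0, with a median log2 fold change of −0.12. SNAPC3, a subunit of the factor that starts snRNA transcription, was at −0.28 (SE 0.10, edgeR, adjusted p = 0.297), and COIL, the scaffold of Cajal bodies, at −0.17 (SE 0.07, adjusted p = 0.391). Of the miRNA pathway, 8 of 12 lay below 0, among them TNRC6A, a partner of Argonaute proteins, at −0.18 (SE 0.07, adjusted p = 0.314), and DGCR8, which binds the primary transcript, at −0.18 (SE 0.08, adjusted p = 0.475). All 6 tested proteins of snoRNA particles lay below 0, with GAR1 at −0.36 and NHP2 closest to 0. The 7SK particle had 2 of 4 below 0, the signal recognition particle 6 of 6 and the RNase P and MRP proteins 3 of 8.

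Between the sexes a single small RNA row was called by edgeR with group as a covariate, which is 0.287% of 349 against a background of 0.122% (17 of 13918). It was RF01881, exon 4 of Xist (ENSCAFG00000029856), the RNA made from the inactive X chromosome of females. The 13 females had 141, 231 and 601 counts (lowest, median and highest) or 8.13, 12.5 and 16.0 CPM. In 17 of 18 males the count was 0, and the remaining male, control 18, had 25 counts or 1.10 CPM. The sexes did not overlap, and control 18 lay below the lowest female. The log2 fold change, female over male, was 7.51 with an SE of 0.51 (edgeR, adjusted p = 1.36e-11), although a fold against a group almost wholly at 0 depends on the prior count and is not a measured ratio. Females with HTG had 9.20, 11.2 and 12.6 CPM (n = 5) and control females 8.13, 13.5 and 16.0 CPM (n = 8), which overlapped. RF01880, another stretch of Xist, reached at most 3 counts and was not included.

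**Figure D5:**
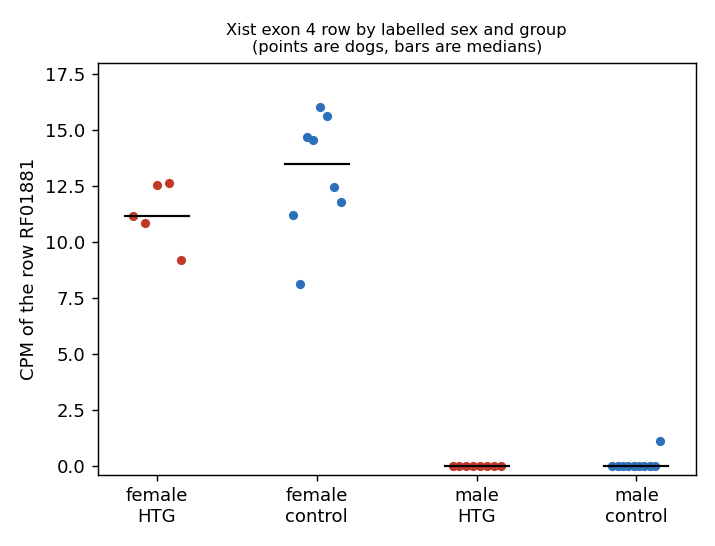
CPM of the Xist exon 4 row RF01881 by labelled sex and group, with 1 point per dog and bars for medians. The 13 females lie between 8.13 and 16.0 CPM, 17 males lie at 0 and 1 control male lies at 1.10 CPM.

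Apart from Xist, 1 further small RNA row had an unadjusted p under 0.05 between the sexes, so 2 in all or 0.573%, beside 4.89% of all rows. It was MIR1282, at 0.53 (SE 0.25, edgeR, p = 0.0449, adjusted p = 0.959). RF01268, RF00567 and SNORA72 followed and did not reach 0.05. With the 10 dogs as a covariate, which was drawn from the levels of these same rows and is not independent of them, 31 small RNA rows had an unadjusted p under 0.05, all higher in females, which is 8.88% beside 2.5% of all rows higher, and Xist was still the only one called, with 0.115% called of all rows. The count with the covariate is therefore a description. The Y RNA rows had a median log2 fold change of −0.48, female over male, with a median SE of 0.58, while 7 of the 10 dogs highest in Y RNA were male.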

How the data were processed

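RNA from whole blood of each dog was sequenced as 1 library. The authors removed ribosomal RNA during library preparation, trimmed reads with Trimmomatic, aligned them with HISAT2 and deposited raw counts of read pairs per Ensembl dog gene row. The counting program, its strand setting and the annotation release are not given in the sources used here. The sources name different RNA extraction kits. No column of the table was left out. A RefSeq gene table (assembly UU_Cfam_GSD_1.0) gave miRNA names and neighbouring genes.

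Groups and sex came from the labels. In R 4.3.3, edgeR 4.0.16 (TMM, filterByExpr, glmQLFit and glmQLFTest) compared HTG with control with no covariate, and female with male with group as a covariate, over all 13918 rows that passed the filter, with Benjamini-Hochberg adjustment over all of them and a threshold of 0.05. The study's DESeq2 model had batch as a covariate, which could not be built because the labels do not name the earlier libraries. CPM used TMM library sizes, and log2 CPM a prior count of 2 where a dog mean was taken. Alternatives were DESeq2 1.42.0, limma-voom 3.58.1, other normalizations and filters, sex or group as a covariate, a replicate block and the 10 dogs highest in small RNA. The test was tested on simulated data. Figures used matplotlib 3.10.9, tables pandas 2.3.3 in Python 3.11.15.

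The rows, lists and tests were chosen with earlier results of these data known. Named were rows called in either comparison, the 10 and 5 with the smallest p, the largest row of each bigger family, miRNAs of blood cells and lipid metabolism, host genes and listed processing genes. Further SNORD, SNORA and Rfam families were named after their levels were seen. Names of Rfam numbers are background knowledge, since the table gives numbers alone. The edgeR standard errors were not estimated directly. Each is the absolute log2 fold change divided by the square root of the F statistic of its quasi-likelihood test. The standard errors hold both counting error and the spread between dogs, which were not separated.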

Additional observations from a re-analysis of the deposited data

How the results depend on the processing

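The count of 0 small RNA rows called for HTG held under all 13 alternatives. In limma-voom, the replicate block and the fits with only and without the 10 dogs, 0 of all rows were called. The 0 for small RNA rows was therefore fixed in those fits. The median log2 fold change of the rows ranged from −0.20 without the 10 dogs highest in small RNA to 0.06 without HTG 1 and control 3. Xist was called under 12 of the 13 alternatives for sex. With only the 10 highest dogs, of which 3 are female, the count of called rows fell to 0, and the Xist row had a log2 fold change of 10.24 with an adjusted p of 0.124 (edgeR). Without the 20 rows with the highest totals, the median share of counts in HTG dogs was 0.720% in place of 3.76%, and that of controls 0.840% in place of 2.98%. Without the 5.8S rows alone, these medians were 0.802% and 0.984%.

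Cases and controls share dog numbers in the labels, but over 13 pairs the correlation of same-numbered dogs' deviations ran from −0.437 to 0.263 with a median of −0.0149, 3 pairs were above 0.1, and 1 dog correlated best with its own number. The dogs share only a number. With the replicate block, 0 of 322 small RNA rows were called for HTG and 1 of 333 for sex, and the median log2 fold change for HTG was 0.03. The median for sex was 0.56 with the block, in place of −0.03, and the cause was not tested. HTG calls over all rows were 5 of 13918 without the block and 0 of 13684 with it, where only the dogs of the 13 pairs entered, so that the dogs and the rows changed with the block.

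Over all rows, HTG calls were 84 with DESeq2, 0 with limma-voom and 28 without HTG 1 and control 3. Of the 418 rows, 160 had at least 10 counts in every dog, and the part of low counts in the number of calls was not tested.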
